A study of Mus musculus with 10 samples.

Results

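*Myc* and 31 genes whose products make ribosomes were followed in single endothelial cells of mouse ear skin. The mice either had or lacked Cre-driven induction of the activating *Pik3ca*H1047R transgene. The 32 genes were taken from a list of names, with no cut on their measured levels. Earlier results of these data were known when the list was chosen. All 32 were found among the 46517 mouse genes of the count tables. By role they are the transcription factor *Myc*, the nucleolar proteins *Ncl*, *Npm1*, *Npm3*, *Gnl3*, *Mybbp1a* and *Ddx21*, and the small nucleolar ribonucleoprotein (snoRNP) genes *Fbl*, *Nop56*, *Nop58*, *Dkc1*, *Gar1*, *Nhp2* and *Nolc1*. The assembly factors of the small ribosomal subunit are *Nop14*, *Wdr43*, *Rrp9*, *Utp20* and *Bysl*. Those of the large subunit are *Nop16*, *Nop2*, *Wdr12*, *Bop1*, *Pes1*, *Rrp1b*, *Rrs1*, *Nip7*, *Grwd1*, *Ebna1bp2* and *Noc2l*, and *Polr1a* and *Polr1b* encode the largest subunits of RNA polymerase I.

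Ribosomes are assembled in the nucleolus, where RNA polymerase I transcribes the ribosomal RNA precursor, snoRNPs modify it and assembly factors cut and fold it around ribosomal proteins. Many of these factors are known targets of MYC, which binds the DNA letters CACGTG (the E-box), and growth signals through PI3K, AKT and mTOR are known to raise ribosome production. In endothelium, MYC is known to be needed for vessel growth and for the metabolic state of sprouting cells.

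Lymphatic and blood endothelial cells (LECs and BECs) had been sorted from ear skin into 384-well plates and sequenced by Smart-Seq2, which reads full-length transcripts of single cells without strand or molecular barcodes. The mutant group was 5 *Pik3ca*H1047R;*Cdh5-CreER*T2 mice (mutants 1–5), in which a Cre driven by the pan-endothelial *Cdh5* promoter switches on the transgene after 4-hydroxytamoxifen (4-OHT) was put on the ears at 3 wk of age. The 2 control mice differ from each other: control 1 was a C57BL/6J mouse that received no 4-OHT, and control 2 was a 4-OHT-treated, Cre-negative littermate. All mice were 5 wk old, and one more control was not analysed here. Nothing in the labels says that the wells of a mouse are more than 1 preparation, so the mouse was taken as the replicate throughout. The transgene has no entry in the count tables, so recombination in single cells could not be read.

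Of 3456 wells, 3248 cells passed the filters, 2524 from mutant and 724 from control mice, and no well name occurred on more than 1 plate. A cell was called a LEC when *Prox1*, *Flt4* and *Mmrn1* summed to at least 300 CPM (reads of a gene scaled to a common library total) and exceeded *Flt1*, *Emcn* and *Podxl*, and a BEC when the latter sum was larger. This gave 1641 LECs, 1542 BECs and 65 cells of neither class. Over 7 markers of each class, LEC markers summed to 7674–10886 CPM in non-cycling LECs and 128–541 CPM in BECs, and BEC markers to 6769–10037 CPM in BECs and 1581–2125 CPM in LECs. Each list of markers includes the genes of the rule itself, so these sums are no independent check of the classes. No doublet caller was run, and in 70 LECs the blood marker sum was over 50% of the lymphatic one. The BEC rule had no lower limit, and in 52 BECs the blood marker sum was under 300 CPM. Markers of other cell types summed to over 1000 CPM in 76 LECs and 170 BECs. Cells with reads of at least 3 of 7 mitotic genes were set apart as cycling: 217 LECs and 103 BECs of mutants, but 4 LECs and 0 BECs of controls. Reads were summed per mouse, which gave 44521415–151246645 reads for non-cycling LECs (132–322 cells) and 29718975–94804100 for BECs (151–320 cells). Plates of mutants 1–4 carry a lower series of numbers than those of mutant 5 and both controls, so genotype and plate series overlap only in mutant 5. The labels do not say whether the series is a batch. Fibroblast markers summed to 168–390 CPM in control and 13.1–108 CPM in mutant LECs (576–787 and 14.6–58.4 CPM in BECs). The 13 immediate-early genes, which respond to tissue dissociation, summed to 2861–4509 and 887–2085 CPM in LECs and to 5711–5798 and 1905–3688 CPM in BECs. The part of these differences in the results was not tested.

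Promoters of 27 of the 32 genes were in the RefSeq table used here (GRCm38.p6), which holds 250 bases before and 50 after each start. *Myc*, *Npm1*, *Fbl*, *Bop1* and *Rrs1* had no window there, so their promoters were not examined. The E-box CACGTG, which reads the same on both strands, lay in the windows of 6 of the 27 genes (22.2%) and of 2187 of 27025 genes in the table (8.09%). The ETS-type letters CCGGAAGT or ACTTCCGG were in 6 of 27 (22.2%, against 4.31% of all) and the CCAAT box, CCAAT or ATTGG, in 8 of 27 (29.6%, against 41.1%). These shares are descriptions of letters, with no test, and do not show binding. The 6 sites that carry the MYC motif are given because *Myc* itself is among the genes, with the E-box in capitals, 5′ to 3′ on the gene's strand.
Nop2, chr6:125131813-125131838, plus strand: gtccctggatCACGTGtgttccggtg
Grwd1, chr7:45830740-45830765, minus strand: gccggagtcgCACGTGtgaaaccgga
Utp20, chr10:88826765-88826787, minus strand: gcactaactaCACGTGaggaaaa
Pes1, chr11:3963967-3963992, plus strand: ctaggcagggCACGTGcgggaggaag
Mybbp1a, chr11:72441357-72441376, plus strand: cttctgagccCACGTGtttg
Wdr43, chr17:71616222-71616247, plus strand: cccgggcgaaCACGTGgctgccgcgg
The first motif base lay 60 bases before the start in *Nop2* and at positions 3 to 41 after it in the other 5. *Pes1* was the one gene called between mutant and control mice, and *Wdr43* was one of the 4 called between cycling and non-cycling LECs (both described with their values further on).

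The windows before the start of *Nhp2* and *Nop56*, 2 others of the 4 genes called in cycling LECs, are given to show that neither held the E-box letters. Capitals mark CCAAT or ATTGG and, in *Nhp2*, CCGGAAGT.
Nhp2, chr11:51619523-51619772, plus strand: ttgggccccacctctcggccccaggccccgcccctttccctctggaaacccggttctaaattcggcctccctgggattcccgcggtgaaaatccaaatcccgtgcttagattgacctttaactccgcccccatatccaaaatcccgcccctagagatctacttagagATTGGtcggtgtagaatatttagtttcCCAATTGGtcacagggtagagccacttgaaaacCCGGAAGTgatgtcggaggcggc
Nop56, chr2:130274162-130274411, plus strand: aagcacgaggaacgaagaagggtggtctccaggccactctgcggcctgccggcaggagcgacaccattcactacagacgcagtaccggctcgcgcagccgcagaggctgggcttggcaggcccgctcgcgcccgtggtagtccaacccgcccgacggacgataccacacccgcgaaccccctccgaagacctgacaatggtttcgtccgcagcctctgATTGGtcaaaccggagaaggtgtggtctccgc
*Nhp2* held 3 CCAAT-type matches, 2 of which share letters, and 1 ETS-type match, and *Nop56* held 1 CCAAT-type match. The window of *Ncl*, the remaining called gene, held none of the 3 motifs.

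The levels of the 32 genes spread over more than 10-fold when corrected for gene length. In reads per kilobase of gene length, scaled as CPM are (RPKM), the median of 7 mice in non-cycling LECs was 87.5 for *Npm1*, a nucleolar histone chaperone, 62.7 for *Nhp2*, a core protein of box H/ACA snoRNPs, 38.6 for *Bop1* and 38.5 for *Myc*. *Ncl* (nucleolin, 35.8 RPKM), *Pes1* (33.0 RPKM) and *Nop16* (30.3 RPKM) came next. The lowest levels were those of *Wdr12* (2.64 RPKM), *Polr1a* (2.54 RPKM), *Rrp1b* (2.43 RPKM) and *Utp20* (2.27 RPKM). Among neighbours in this order, only *Nhp2* and *Bop1* had ranges over mice that did not overlap, so most neighbouring ranks were not distinct. BECs gave a similar top of the order, with *Npm1* at 78.1, *Nhp2* at 44.8, *Myc* at 38.0, *Bop1* at 34.2, *Pes1* at 30.9 and *Ncl* at 27.5 RPKM, and *Utp20* was lowest at 1.57 RPKM. RPKM depend on the deposited gene lengths, which ran from 1146 bases for *Nhp2* to 11955 for *Wdr12*, with 10188 for *Ncl* and 10758 for *Nop58*.

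Reads of some of these genes can be shared with other loci. Of the 32 genes, 7 have stretches of at least 300 bases with at least 95% identity in other annotated genes: *Npm1* in 5, *Nop56* in 4, *Fbl*, *Wdr12* and *Pes1* in 2 each, and *Npm3* and *Ddx21* in 1 each. *Noc2l* shares 20.9% of its exon bases with the overlapping gene *Samd11*, *Bysl* 9.37% with *Ccnd3* and *Nop56* 8.12% with snoRNA genes and *Idh3b*, and without strand these reads cannot be told apart. Values of these genes are uncertain to that extent. An annotated snoRNA gene lies inside 6 of the 32 genes (18.8%; *Ncl*, *Nop56*, *Nop58*, *Dkc1*, *Wdr43* and *Gnl3*), against 250 of 18501 protein-coding genes (1.35%).

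The first comparison asked whether these genes differed between mutant and control LECs outside the cycling cells. *Myc* did not separate the groups. *Bysl*, *Ddx21*, *Pes1*, *Bop1* and *Nop2* were higher in every mutant than in either control, as were 11.2% of all genes tested. Mean differences of these named genes ran from 1.37-fold for *Pes1* to 1.86-fold for *Bysl*, but none of them passed the test. None of the 32 passed edgeR's quasi-likelihood test at an adjusted p under 0.05, where 79 of 19248 genes did (0.41%). At an unadjusted p under 0.05 there were 5 (16.6% of all genes), and DESeq2 called 3 (*Bysl*, *Ddx21* and *Pes1*, all higher; 9.9% of all genes). Log2 fold changes were above 0 for 20 of 32, with a median of 0.08 beside -0.0031 over all genes. The medians were 0.05 beside 0.13 without control 1 and 0.14 beside 0.13 without control 2, so the median of the 32 genes was not above that of all genes once control 1 was left out. Other lists moved as well: mitotic genes summed to 20.4–23.2 CPM in control and 36.0–51.5 CPM in mutant non-cycling LECs, S-phase genes to 232–258 and 272–434 CPM, and LEC markers to 9969–10886 and 7674–9631 CPM. Keratinocyte markers were at 232–414 and 81.1–224 CPM, mural markers at 71.2–119.8 and 37.9–60.0 CPM and Schwann markers at 26.8–112 and 0.374–21.7 CPM. Their part in these values was not tested.

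*Bysl* (chr17:47599331-47611492, minus strand, GRCm38.p6) encodes bystin, which is needed to mature the small subunit. It was at 52.2 and 60.7 CPM in controls 1 and 2 and at 91.7, 87.3, 129.6, 109 and 107 CPM in mutants 1–5. The lowest mutant lay above the higher control, and the log2 fold change was 0.89 (SE 0.20, 95% interval 0.43 to 1.36, edgeR adjusted p = 0.0876). Over 20 alternatives it was called in 3, with adjusted p between 0.000745 and 0.795. *Ddx21* (chr10:62580251-62602281, minus strand) is a nucleolar RNA helicase that acts in rRNA transcription and processing. Its values were 40.7 and 38.7 CPM in controls and 52.7, 77.0, 53.8, 77.9 and 65.2 CPM in mutants, a log2 fold change of 0.72 (SE 0.23, edgeR adjusted p = 0.179). Here, too, the groups did not overlap.

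*Pes1* and *Bop1* encode 2 of the proteins of the PeBoW complex, which processes the rRNA of the large subunit together with WDR12. *Pes1* (chr11:3963975-3980004, plus strand) was at 78.8 and 83.7 CPM in control LECs and at 118, 101, 122, 100.3 and 116 CPM in mutant LECs (log2 fold change 0.46, SE 0.16, edgeR adjusted p = 0.206). *Bop1* (chr15:76452989-76477277, minus strand) was at 48.1 and 87.2 CPM in controls and at 106, 119, 100.1, 88.2 and 95.2 CPM in mutants (0.59, SE 0.25, adjusted p = 0.282). For *Bop1* the gap between the higher control and the lowest mutant was about 1 CPM, and the controls lay further apart than any mutants did. *Wdr12*, the remaining protein of the complex, had a log2 fold change of 0.05 (SE 0.41).

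*Nop2*, an rRNA cytosine methyltransferase, was at 18.6 and 46.7 CPM in controls and at 58.9, 64.2, 50.8, 49.8 and 54.0 CPM in mutants (0.77, SE 0.34, edgeR adjusted p = 0.305). *Gar1*, a box H/ACA snoRNP protein, was at 20.2 and 37.3 CPM in controls and 13.4, 12.1, 19.2, 16.9 and 20.9 CPM in mutants (-0.80, SE 0.34, adjusted p = 0.284). Control 1 lay within the mutant range of *Gar1*, so its groups overlapped. In all, 5 of the 32 genes were higher in every mutant than in both controls, a pattern seen in 11.2% of all genes tested, and 0 were lower in every mutant, which 10.8% of all genes were.

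*Myc* (chr15:61985391-61990374, plus strand) was at 111 and 99.7 CPM in control LECs and at 65.3, 139.6, 129, 109 and 103 CPM in mutant LECs. The controls lay inside the mutant range, and the log2 fold change was 0.05 (SE 0.27, 95% interval -0.57 to 0.67, edgeR adjusted p = 0.952). The 31 other genes summed to 1824 and 2111 CPM in controls and 1968, 1958, 2206, 2152 and 2135 CPM in mutants, ranges that overlapped.

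**Figure D1:**
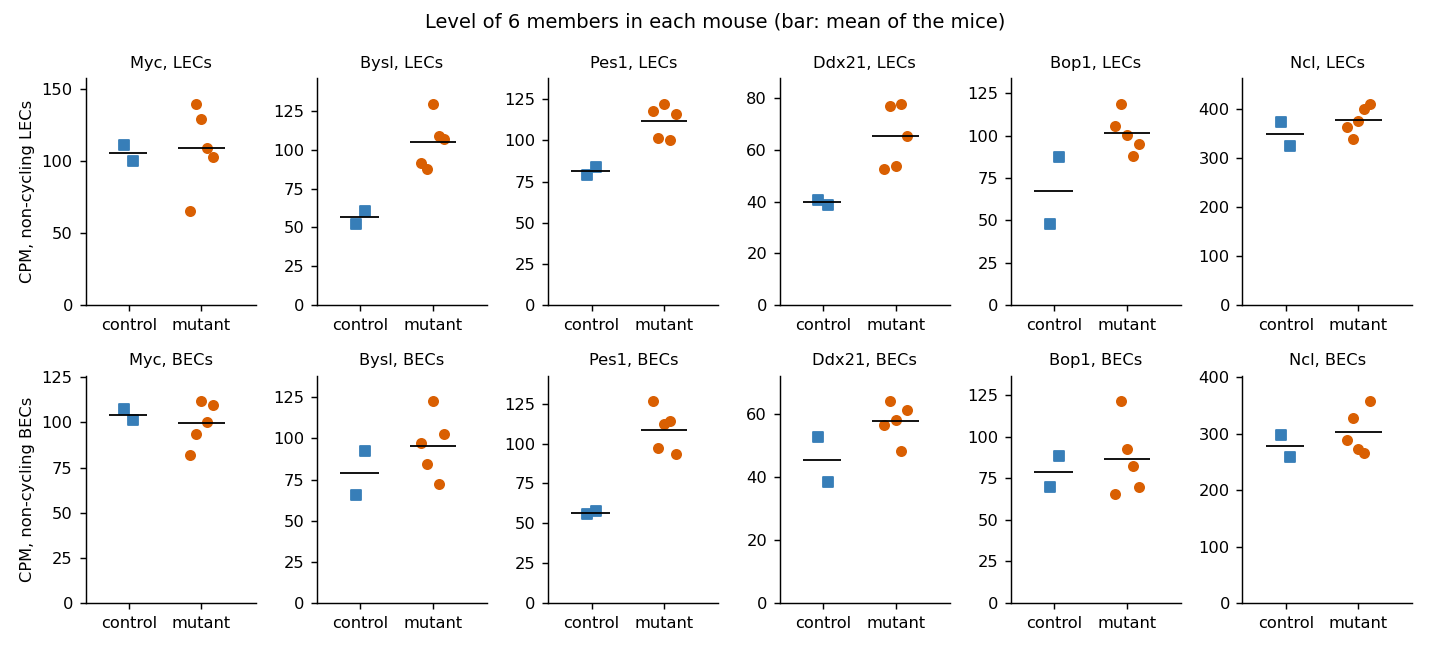
CPM of *Myc*, *Bysl*, *Pes1*, *Ddx21*, *Bop1* and *Ncl* in non-cycling LECs (upper row) and BECs (lower row) of each mouse. Points are mice (2 control, 5 mutant) and horizontal bars group means; *Pes1* rises from 55.6 and 57.4 CPM to at least 93.3 CPM in BECs, while *Myc* in controls lies inside the mutant range in both cell types.

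Mutant 5 was the mutant on the plate series of the controls. Against both controls, 10 of the 32 genes were higher and 6 lower in its LECs (34.6% and 30.6% of all genes were), and 15 were higher and 5 lower in its BECs (33.7% and 30.2%). The 5 genes with separate groups in LECs were all above both controls in mutant 5 as well, which is part of their definition.

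In BECs, the same comparison called 1 gene of 32, *Pes1*, where 283 of 19351 genes were called (1.46%), 1.03% higher. *Pes1* was at 55.6 and 57.4 CPM in control BECs and at 127, 97.2, 112, 114 and 93.3 CPM in mutant BECs. Every mutant was above both controls, and the log2 fold change was 0.94 (SE 0.18, 95% interval 0.53 to 1.36, edgeR adjusted p = 0.0494). The call is at the threshold: *Pes1* was called in 4 of 20 alternatives, with adjusted p from 0.000137 to 0.896, and leaving out control 1, control 2 or any of mutants 1–4 ended it. DESeq2 called *Pes1* alone of the 32, and 10.4% of all genes.

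The next in order of p in BECs were *Noc2l*, *Grwd1*, *Rrp9*, *Ddx21* and *Fbl*, and none passed the test. *Grwd1*, a chaperone of ribosomal protein RPL3, was at 20.5 and 19.9 CPM in controls and at 22.7, 30.8, 29.3, 27.0 and 35.9 CPM in mutants, without overlap (log2 fold change 0.52, SE 0.26, edgeR adjusted p = 0.338). *Noc2l*, a nucleolar protein that shares exon bases with *Samd11*, was at 12.3 and 17.8 CPM in controls and at 38.4, 21.9, 15.8, 23.9 and 32.0 CPM in mutants (0.81, SE 0.39, adjusted p = 0.331), and mutant 3 lay between the controls. *Rrp9*, a protein of the U3 snoRNP, was high in 1 control only (75.4 and 28.5 CPM, against 35.2, 35.6, 37.1, 31.1 and 26.9 CPM; -0.65, SE 0.34, adjusted p = 0.362). *Ddx21*, separate in LECs, overlapped here, with 52.7 and 38.3 CPM in controls and 56.7, 64.1, 58.2, 48.2 and 61.4 CPM in mutants (0.34, SE 0.21, adjusted p = 0.427). *Fbl*, the methyltransferase of box C/D snoRNPs, overlapped as well (39.5 and 27.8 CPM, against 19.3, 20.5, 24.4, 26.5 and 32.6 CPM; -0.45, SE 0.29, adjusted p = 0.447).

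*Myc* in BECs was at 107 and 101 CPM in controls and at 81.8, 93.8, 112, 100.4 and 109.8 CPM in mutants (log2 fold change -0.07, SE 0.17, 95% interval -0.46 to 0.32, edgeR adjusted p = 0.873). Fold changes were above 0 for 18 of the 32 genes, with a median of 0.09 beside -0.0092 over all genes. Without control 1 the medians were 0.22 beside 0.14, and without control 2 they were 0.10 beside 0.12. Without overlap, 2 of 32 were higher (12.3% of all genes) and 0 lower (11% of all genes).

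Whether the mutant effect differed between LECs and BECs was tested in one model with mouse as a block. None of the 32 genes was called (18 of 21458 genes were, 0.0839%), 4 had an unadjusted p under 0.05 (10.4% of all genes) and DESeq2 called 0 (5.64%). For *Pes1* the difference was -0.52 (SE 0.20, edgeR adjusted p = 0.411) and for *Bysl* 0.57 (SE 0.22, adjusted p = 0.411), so the call of *Pes1* in BECs does not set the cell types apart. For *Myc* it was 0.04 (95% interval -0.55 to 0.64).

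**Figure D2:**
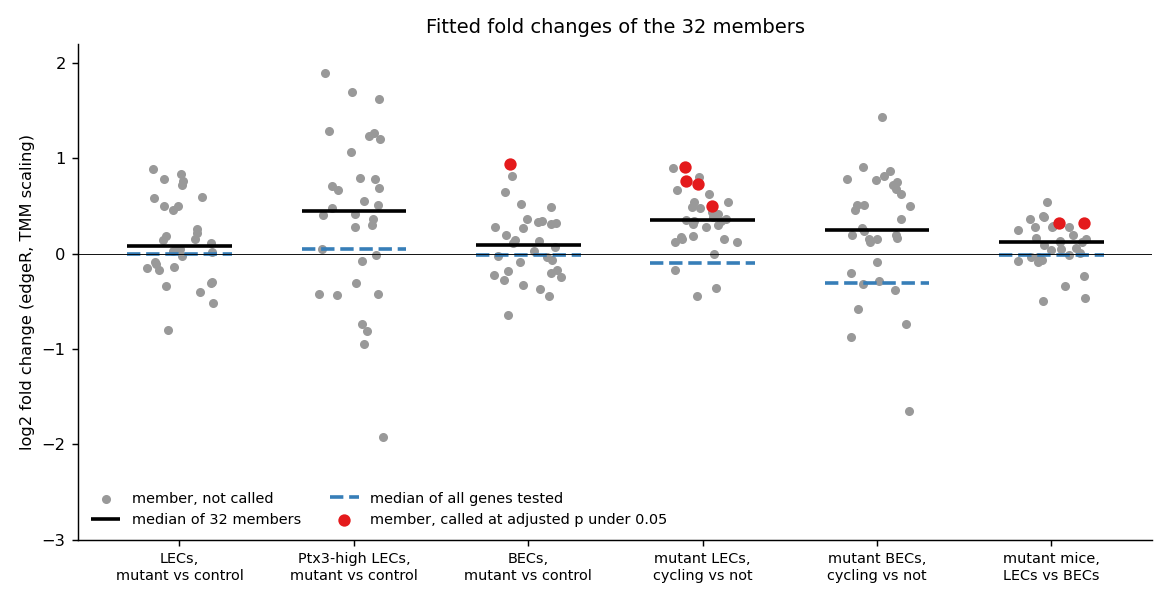
Log2 fold changes of the 32 genes in 6 comparisons. Each point is a gene, red where called by edgeR (1 in BECs, 2 in LECs against BECs of mutants, 4 in cycling LECs); the black line is the median of the 32 genes and the blue dashed line that of all genes tested, which is lower in cycling LECs (-0.10 against 0.36).

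LECs and BECs of the same mouse were compared next. In mutant mice 2 of the 32 genes were higher in LECs, *Ncl* and *Ebna1bp2*, and none lower, where 18.9% of 21458 genes were called, 9.4% higher in LECs. *Ncl*, which binds nascent rRNA, was at 368, 351, 378, 397 and 399.8 CPM in LECs and at 296, 328, 278, 272 and 349 CPM in BECs of mutants 1–5 (log2 difference 0.32, SE 0.08, edgeR adjusted p = 0.029), higher in LECs of 5 of 5 mutants. *Ebna1bp2*, a large-subunit factor, was at 83.9, 87.0, 102, 98.0 and 104 CPM in LECs and 72.8, 65.7, 74.9, 84.6 and 80.8 CPM in BECs (0.33, SE 0.09, adjusted p = 0.044), also in 5 of 5. Both differences were small. *Ncl* was called in 8 of 13 alternatives (adjusted p 0.0112 to 0.102) and *Ebna1bp2* in 2 (0.00634 to 0.129).

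*Nhp2* missed the threshold, with 60.4, 66.6, 74.6, 66.1 and 82.0 CPM in mutant LECs and 54.2, 51.2, 46.6, 44.9 and 71.5 CPM in mutant BECs (0.39, SE 0.12, edgeR adjusted p = 0.0532). In the opposite direction, *Wdr43*, a factor of the small-subunit processome, was lower in LECs of every mutant (31.1, 38.2, 51.2, 72.7 and 45.4 CPM, against 46.7, 86.0, 70.3, 75.0 and 52.8 CPM; -0.49, SE 0.21, adjusted p = 0.154). *Nop58* (0.39, SE 0.18, adjusted p = 0.194) and *Nip7* (0.28, SE 0.14, adjusted p = 0.223) did not pass either. In the 2 control mice edgeR called 0 of 32 (9.27% of all genes were called), 5 had an unadjusted p under 0.05 (22.3%) and DESeq2 called 3 (*Nhp2*, *Pes1* and *Polr1b*, higher in LECs; 22% of all genes). *Ncl* in controls was at 373 and 322 CPM in LECs and 296 and 248 CPM in BECs. *Myc* was at 111 and 98.7 CPM in control LECs and 106 and 97.1 CPM in control BECs, with a log2 difference of 0.09 in mutants (95% interval -0.23 to 0.40). In all 5 mutants 4 genes were higher in LECs (15.3% of all genes) and 2 lower (14.6%).

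The clearest difference lay between cycling and non-cycling LECs of the mutant mice. There 28 of the 32 genes had a log2 fold change above 0, against 43.3% of all genes. The test called 4 genes, all higher in cycling cells: *Nhp2*, *Ncl*, *Nop56* and *Wdr43*. Of the 15970 genes tested 1111 were called (6.96%), 4.34% higher. The median of the 32 genes was 0.36 beside -0.10 over all genes, and 13 of the 32 had an unadjusted p under 0.05 (22.3% of all genes). DESeq2 called 11 of the 32 and 19.1% of all genes. *Myc* itself was not among them. The mitotic genes that set the cells apart are not among the 32 genes.

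*Nhp2* (chr11:51619735-51623714, plus strand), the box H/ACA snoRNP protein whose promoter is given above, was at 59.4, 64.3, 72.8, 65.1 and 81.2 CPM in non-cycling and at 124, 141, 131, 117 and 128 CPM in cycling LECs of mutants 1–5. The lowest cycling value lay above the highest non-cycling one. The log2 fold change was 0.91 (SE 0.12, 95% interval 0.63 to 1.19, edgeR adjusted p = 0.00556), and *Nhp2* was called in 13 of 13 alternatives.

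*Ncl* (chr1:86344719-86359400, minus strand) went from 362, 339, 369, 391 and 396 CPM in non-cycling to 475, 582, 491, 627 and 459 CPM in cycling LECs, again without overlap (0.50, SE 0.10, edgeR adjusted p = 0.0229). *Nop56* (chr2:130274430-130279313, plus strand), a core protein of box C/D snoRNPs, was at 67.1, 69.1, 104, 98.3 and 77.6 CPM in non-cycling and 99.1, 165, 145, 169 and 116 CPM in cycling LECs (0.73, SE 0.14, adjusted p = 0.024). *Wdr43* (chr17:71615895-71659031, plus strand) was at 30.6, 36.9, 49.9, 71.7 and 45.0 CPM and 54.3, 77.6, 71.6, 141 and 59.3 CPM (0.76, SE 0.16, adjusted p = 0.0322). For *Nop56* and *Wdr43* the 2 kinds of cell overlapped between mice but not within a mouse, since each was higher in cycling cells of 5 of 5 mutants. The calls of *Ncl*, *Nop56* and *Wdr43* held in 9, 8 and 5 of 13 alternatives, and adjusted p reached 0.0734, 0.079 and 0.17. Leaving out any of mutants 1–4 left *Nhp2* alone, and leaving out mutant 5 left *Nhp2* and *Ncl*.

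*Npm1*, which chaperones histones and ribosomal proteins, was at 193, 219, 215, 233 and 247 CPM in non-cycling and 273, 296, 231, 290.3 and 318 CPM in cycling LECs (0.34, SE 0.09, edgeR adjusted p = 0.0569). *Rrp9* was at 33.8, 34.5, 40.7, 36.9 and 37.0 CPM and 50.1, 39.5, 77.4, 68.6 and 61.4 CPM (0.66, SE 0.18, adjusted p = 0.0731). Neither passed the test, though both were higher in cycling cells of 5 of 5 mice. In all, 10 genes were higher in all 5 mice (12% of all genes) and 0 lower (12%). The 10 were *Ncl*, *Npm1*, *Nop56*, *Nop16*, *Nhp2*, *Wdr43*, *Wdr12*, *Bop1*, *Rrp9* and *Gnl3*. The 4 genes with a value at or below 0 were *Utp20* (-0.45), *Rrp1b* (-0.36), *Myc* (-0.18) and *Polr1a* (-0.01). *Bysl*, which edgeR did not call between genotypes, and *Pes1*, which it called in BECs only, were at 0.15 and 0.34.

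*Myc* was at 65.1, 139, 126, 107 and 98.7 CPM in non-cycling and at 87.7, 94.2, 80.1, 83.3 and 119 CPM in cycling LECs, higher in 2 of 5 mice (-0.18, SE 0.19, 95% interval -0.62 to 0.27, edgeR adjusted p = 0.652). The 31 other genes summed to 2694, 2815, 2508, 3238 and 2680 CPM in cycling LECs, 1.14 to 1.50 times the value of non-cycling LECs of the same mouse. Cycling sums were made of fewer cells (22–72 per mouse) and 10192075–43106565 reads. LEC markers summed to 5801–7365 CPM in cycling and 7674–9631 CPM in non-cycling mutant LECs, and 4 of the 7 were called lower. BEC markers were at 1592–1772 and 1686–2125 CPM. The part of marker levels in the result was not tested.

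In BECs, where 5–36 cycling cells per mutant gave 1807484–9891965 reads, edgeR called 0 of the 32 genes between cycling and non-cycling cells (240 of 14745 genes were called, 1.63%). At an unadjusted p under 0.05 there were 3 (15.5% of all genes), and DESeq2 called 2 (*Ncl* and *Gar1*, both higher; 13.1% of all genes). Fold changes were above 0 for 23 genes, with a median of 0.25 beside -0.31 over all genes. *Ncl* was at 287, 313, 266, 267 and 345 CPM in non-cycling and 403, 498, 369, 402 and 429 CPM in cycling BECs (0.51, SE 0.11, edgeR adjusted p = 0.0814), without overlap. The same log2 fold change was 0.50 in LECs, and the difference between the cell types was not tested. LEC markers summed to 248–1115 CPM in cycling and 128–533 CPM in non-cycling mutant BECs, and their part in these values was not tested. *Nop56* (0.68, SE 0.25, adjusted p = 0.259) and *Nolc1*, a snoRNP chaperone (0.86, SE 0.32, adjusted p = 0.259), were higher in 5 of 5 mice. *Nhp2* was at 52.5, 48.8, 44.5, 44.1 and 70.6 CPM in non-cycling and 98.8, 109, 70.9, 120.3 and 54.3 CPM in cycling BECs (0.77, SE 0.34, adjusted p = 0.327), with mutant 5 the exception. *Mybbp1a* (0.37, SE 0.18, adjusted p = 0.377) and *Bysl* (0.62, SE 0.31, adjusted p = 0.382) did not pass. *Myc* ranged from 56.0 to 316 CPM in cycling BECs, the highest in mutant 4, which had 5 such cells, against 81.0–109 CPM in non-cycling BECs (0.26, SE 0.36, adjusted p = 0.759). In all 5 mice 6 genes were higher (8% of all genes) and 0 lower (11.6%).

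*Ptx3*, which encodes a secreted pentraxin, marks capillary LECs that the study divided into non-proliferating, proliferating and metabolic clusters. Non-cycling LECs with at least 100 CPM of *Ptx3* were not divided further here. They numbered 12 and 42 in controls 1 and 2 and 41, 47, 104, 65 and 128 in mutants 1–5. Between mutant and control mice edgeR called 0 of the 32 genes in these cells (295 of 15654 genes were called, 1.88%), 3 had an unadjusted p under 0.05 (20% of all genes) and DESeq2 called 2, *Bysl* and *Bop1* (14% of all genes). The median log2 fold change was 0.45 beside 0.05 over all genes, and 22 of 32 were above 0. Without control 1 the medians were 0.23 and 0.23, and without control 2 they were 0.84 and 0.64. Of all LECs, 31 lay within 25 CPM of the limit. The values rest on control 1, whose 12 cells gave 1 or 2 reads each for *Nop58*, *Nip7*, *Utp20* and *Polr1a*, which had 317 to 921 reads in control 2. Without control 2, control 1 stood alone, and the medians of 0.84 and 0.64 above rest on its 12 cells. Leaving out any of the mutants called 0 of the 32 genes (30 to 97 of all genes).

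*Bysl* was at 29.1 and 72.2 CPM in *Ptx3*-high LECs of controls and at 112, 99.8, 149, 119.9 and 119 CPM in those of mutants (1.24, SE 0.38, edgeR adjusted p = 0.124). *Bop1* was at 23.3 and 60.9 CPM in controls and 78.4, 144, 109, 87.8 and 97.8 CPM in mutants (1.29, SE 0.43, adjusted p = 0.151). Both were without overlap, and in both control 1 was the lowest. *Ncl* was at 274 and 346 CPM in controls and 397, 389, 381, 435 and 400.1 CPM in mutants (0.37, SE 0.17, adjusted p = 0.255), also without overlap. *Mybbp1a*, a regulator of rRNA genes, had no overlap (0.69, SE 0.31, adjusted p = 0.259), and *Polr1b* (1.90, SE 0.90, adjusted p = 0.278) overlapped, with mutant 1 at 5.92 CPM between the controls (2.88 and 7.70 CPM). *Npm3*, a histone chaperone related to *Npm1*, was at 26.4 and 7.33 CPM in controls and 3.02, 2.62, 4.29, 8.26 and 4.01 CPM in mutants (-1.92, SE 0.78, adjusted p = 0.214). In all, 9 genes were higher without overlap (14.5% of all genes) and 2, *Myc* and *Nop56*, lower (10.5%).

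*Myc* was lower in *Ptx3*-high LECs of every mutant than in those of either control, at 148 and 139.6 CPM in controls and 41.8, 100.3, 120.1, 81.5 and 86.4 CPM in mutants (-0.74, SE 0.36, 95% interval -1.55 to 0.07, edgeR adjusted p = 0.284). In the same cells the 13 immediate-early genes summed to 4435–4967 CPM in controls and 826–2298 CPM in mutants, with 4 called lower, and LEC markers to 11302–12744 and 7670–9534 CPM, with 2 called lower. Their part in the *Myc* values was not tested. Within mice, *Myc* was at 148 and 139 CPM in *Ptx3*-high and 108 and 85.3 CPM in *Ptx3*-low LECs of controls, higher in both. In mutants it was at 42.6, 102, 123, 81.8 and 87.3 CPM in *Ptx3*-high and 77.8, 158, 131, 129.7 and 111 CPM in *Ptx3*-low LECs, lower in 5 of 5. The within-mouse log2 difference was 0.59 in controls (SE 0.23, adjusted p = 0.344) and -0.52 in mutants (SE 0.15, adjusted p = 0.148), and the difference between them was -1.10 (SE 0.27, 95% interval -1.73 to -0.48). At an adjusted p of 0.249 this did not pass edgeR's test over 19050 genes, while DESeq2 called it. Over the 13 immediate-early genes the median of the same within-mouse log2 difference was 0.62 in controls and -0.42 in mutants, and the difference between them was below 0 for 11 of the 13 (5 at an unadjusted p under 0.05, 0 called by edgeR). Their part in the *Myc* values was not tested. None of the 32 genes was called by edgeR in controls, mutants or their difference, where 8, 427 and 7 of all genes were (0.042%, 2.24% and 0.0367%). At an unadjusted p under 0.05 there were 7, 3 and 7 (12.9%, 12.9% and 10.4% of all genes), and DESeq2 called 3, 2 and 4 (11.1%, 9.84% and 6.73%). *Npm1* was higher in *Ptx3*-high LECs of 5 of 5 mutants (226, 287, 248, 246 and 265 CPM, against 178, 192, 199, 224 and 237 CPM; 0.31, SE 0.09, adjusted p = 0.181). In all 5 mutants 3 genes were higher (8.12% of all genes) and 2 lower (8.86%).

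The share of cells with a *Myc* read was taken after each cell was thinned to 50000 reads. It was 42.9% and 32.6% in control LECs and 25.0%, 36.9%, 41.6%, 38.1% and 38.3% in mutant LECs (132–322 cells per mouse), and the difference of the means was -1.71 percentage points (two-sided exact permutation over 21 splits of the mice, p = 0.857, smallest possible p 0.0952). Counting cells with at least 2 reads turned the direction, to a difference of 4.41 points (exact p = 0.286). Wilson 95% intervals were 35.9% to 50.1% in control 1 and 18.4% to 33.0% in mutant 1, the highest and lowest mice. They cover counting error only, and reads without molecular barcodes are not independent molecules. In BECs the shares were 46.6% and 25.0% in controls and 31.1%, 35.3%, 33.8%, 28.6% and 30.8% in mutants, with a difference of -3.89 points (exact p = 0.571). This value was 3.71 points for cells with at least 2 reads, -11.2 points without thinning, 6.92 points without control 1 and -14.7 points without control 2, so its direction rested on control 1 and on the read limit. In both cell types control 1 was the highest of all mice.

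CPM cannot show a change that all genes share, so reads of mouse genes were also set against reads of the added ERCC spike-ins. Non-cycling LECs gave 157 and 137 mouse reads per spike-in read in controls and 302, 445, 344, 276 and 291 in mutants, a mean of 147 against 331 ± 68.1 (SD, n = 5, two-sided exact permutation p = 0.0952, the smallest possible). BECs gave 129 and 94.5 in controls and 270, 392, 301, 288 and 184 in mutants (112 against 287 ± 74.2, exact p = 0.0952). Every mutant was above both controls in both cell types, mutant 5 of the controls' plate series included. The amount of spike-in per well cannot be read from the files, so RNA per cell and spike-in per well cannot be told apart. With spike-in reads as library size, the median log2 fold change of all genes became 1.10 in LECs and 1.28 in BECs, that of the 32 genes 1.20 and 1.37, and 18 and 19 of the 32 were called higher, where 32.7% and 30.7% of all genes were called.

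Cycling LECs of mutants had 1.27 to 2.68 times the mouse reads per spike-in read of non-cycling LECs of the same mouse (mean log2 ratio 0.71, exact sign-flip permutation over 5 mice, p = 0.0625, the smallest possible). For the 31 genes other than *Myc* the ratio was 1.60 to 4.03. In BECs it was 0.978 to 1.93 over all reads (0.57, exact p = 0.125) and 1.07 to 2.75 for the 31 genes. On this scale 20 of the 32 genes were called higher in cycling LECs (20.8% of all genes were called), where the median of all genes was 0.58 and that of the 32 genes 1.04. The cycling rule counted reads of mitotic genes, so a cell with more mouse reads could pass it more easily. Median reads per cell were 343024–612605 in cycling and 266060–473945 in non-cycling mutant LECs. The part of read depth in these ratios was not tested.

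The rest of the pathway was counted over lists of other genes. Of the other small-subunit factors 41 were tested and of the other large-subunit factors 45. Between mutant and control LECs edgeR called 0 of either (0.41% of all genes were called), and their medians were 0.24 and 0.06. At an unadjusted p under 0.05 there were 8 and 2, against 16.6% of all genes. Of the 18 other genes of the RNA polymerase I machinery 0 were called in LECs or BECs, and their medians were -0.34 and -0.33. At an unadjusted p under 0.05 there were 4 and 4, against 3197 of 19248 genes in LECs and 3362 of 19351 in BECs. The 77 ribosomal protein genes, which encode the ribosome's structural proteins, had log2 fold changes below 0 in LECs without exception, with a median of -0.83. None was called by edgeR (70 at an unadjusted p under 0.05, against 16.6% of all genes). The sum of the 77 was 20961 and 30300 CPM in controls and 13606–17290 CPM in mutants. In BECs 75 of 77 were below 0 (median -0.79, 0 called). At an unadjusted p under 0.05 there were 52 of the 77, against 3362 of 19351 genes. The sum in mutant 5 was 23801 CPM, inside the control range of 23539–33157 CPM. In *Ptx3*-high LECs 8 of the 77 were called lower (1.88% of all genes were called), among them *Rpl27a* (-1.40) and *Rps7* (-1.05). These values are relative to other genes in CPM, and the spike-in scaling shifts all genes by 1.10 in LECs, which is more than the size of this median, so its sign holds for CPM only.

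Of 29 other known MYC targets tested, 0 were called in LECs (8 at an unadjusted p under 0.05, against 16.6% of all genes). In mutant BECs 2 were called higher, where 1.03% of all genes were. They were *Shmt2*, a mitochondrial serine enzyme (1.08, SE 0.18, edgeR adjusted p = 0.0329), and *Ldha*, lactate dehydrogenase (0.89, SE 0.15, adjusted p = 0.0287). In cycling LECs 28 of the 29 were above 0 (median 0.40), against 43.3% of all genes. Of the 29, 6 were called higher (4.34% of all genes), led by *Ran* (1.15), *Pa2g4* (0.95), *Ranbp1* (0.84) and *Nme1* (0.77). In cycling BECs *Ran* (1.29) and *Ranbp1* (0.95) were called, where 1.63% of all genes were. In cycling LECs, where 6.96% of all genes were called, the RNA polymerase I machinery had 17 of 18 genes above 0 and 1 called, *Polr1c* (0.65). The large-subunit factors had 1 called, *Eif6* (0.39). The small-subunit factors had 0 (5 at an unadjusted p under 0.05, against 22.3% of all genes). Of the ribosomal proteins 63 of 77 were above 0, with a median of 0.10, and *Rpsa* was called (0.37). In the MYC network, *Mxd3*, a MAX partner that competes with MYC, was higher in cycling LECs (1.62, SE 0.13, adjusted p = 0.000669) and cycling BECs (1.50), and *Mlxip*, a glucose-sensing factor of the network, was lower in cycling LECs (-0.74).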

How the data were processed

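Per the labels and the study's methods, single cells were sorted into 384-well plates and sequenced by Smart-Seq2, and the authors aligned reads with TopHat2 (2.1.1) to GRCm38, removed duplicates with SAMtools (0.1.18) and made the deposited counts per gene with featureCounts. The deposited values are whole-number counts with a gene length; ERCC spike-in rows were kept out of library sizes. A cell needed 200 genes, 50000 reads and a mitochondrial share of no more than 10% to be classed by markers.

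Counts were summed per mouse and population (at least 5 cells) and tested with edgeR (4.0.16; filterByExpr, TMM, quasi-likelihood F test), with Benjamini-Hochberg adjustment over all genes tested and calls at an adjusted p under 0.05. Mouse was a block within mice. DESeq2 (1.42.0), other filters, scalings, cell rules and left-out mice were alternatives. CPM are TMM-scaled within each comparison, so they differ slightly between comparisons. Scripts were tested on simulated counts. Single values were tested by exact permutation over mice.

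All 32 genes are named; those described mouse by mouse are *Myc*, the called genes and, where fewer than 6 were called, those of smallest p up to 6 per comparison. *Npm1* in *Ptx3*-high cells was added after its values were seen. The genes, lists and tests were chosen with earlier results of these data known. Positions are from GENCODE (GRCm38.p6) and promoters from RefSeq (GRCm38.p6).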

Additional observations from a re-analysis of the deposited data

Results flagged for a closer look

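The share of non-cycling LECs with a *Myc* read, after thinning, was 25% in mutant 1 and 36.9% to 41.6% in the other 4 mutants. Its gap to the nearest of them was 0.719 of the range of the 5 mice, just above the limit used for 5 values. Of 48 such values examined this was the 1 flagged, and chance flags about 1 in 20 groups. *Myc* was also lowest in mutant 1 in CPM (65.3 CPM, against 103 to 139.6 CPM in the other mutants).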

How the results depend on the processing

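Counts of the 32 genes called depended on the tool and the scaling. DESeq2 called 3 genes in LECs (0 in edgeR), 2 in *Ptx3*-high LECs (0), 3 between LECs and BECs of controls (0), 11 in cycling LECs (4), 2 in cycling BECs (0), and 3, 2 and 4 in *Ptx3*-high against *Ptx3*-low LECs of controls, of mutants and for their difference (0 each). Over all genes DESeq2 called 1717 in LECs, 2026 in *Ptx3*-high LECs, 2995 in cycling LECs and 1926 in cycling BECs, where edgeR called 79, 295, 1111 and 240. With spike-in reads as library size the counts were 18 in LECs, 19 in BECs and 20 in cycling LECs. Of all genes 32.7%, 30.7% and 20.8% were called there. The count was 13 in *Ptx3*-high LECs, where the median of all genes was 1.30. Under that scaling 12 values in LECs, 9 in *Ptx3*-high LECs and 14 in BECs turned from below to above 0. Of these, the called ones were *Npm1* (1.02) and *Nop56* (0.95) in LECs, *Npm1* (1.18) in *Ptx3*-high LECs, and *Myc* (1.20), *Npm1* (1.08), *Nhp2* (1.09), *Gnl3* (1.28) and *Ebna1bp2* (1.06) in BECs. The median of all genes became 1.10, 1.30 and 1.28. Keeping cycling cells called 1 gene in LECs, and a *Ptx3* limit of 200 CPM called 1 in *Ptx3*-high LECs.

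The single call in BECs, *Pes1*, was lost (0 called) with DESeq2 size factors, no filter on low counts, cells thinned to 50000 reads, the stricter cell rule, the plate series as a block, the plate series of the controls alone, equal numbers of cells, first plates alone, and S-phase cells counted as cycling. The cause was not tested. Between LECs and BECs of mutants, 1 gene was called in place of 2 with DESeq2 size factors, with no filter and with no replicate block. In controls 1 was called, *Polr1b*, with thinned cells and with the stricter cell rule.

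Mice of equal number in both groups share only a number in the labels. The correlation of their deviations from the group means was -0.0008 for number 1 and -0.044 for number 2. With 2 controls, these deviate from their mean by equal and opposite amounts, so the values cannot decide on a pairing. No pairing was taken. With the number as a replicate block 0 genes were called in BECs (19 over all genes).

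Leaving out 1 mouse at a time gave 0 calls in LECs in each of 7 fits, 0 to 11 in *Ptx3*-high LECs (11 without control 2), 0 to 1 in BECs (1 only without mutant 5), 0 to 1 between LECs and BECs of controls and 0 to 1 of mutants, 1 to 2 in cycling LECs, and 0 to 6 and 0 to 7 for *Ptx3*-high against *Ptx3*-low LECs of controls and the difference between genotypes (6 and 7 without control 2). The difference in the *Myc* read share of LECs was -1.71 points, -12.3 without thinning, 4.41 for at least 2 reads and -6.86 to 3.44 with 1 mouse left out. That of mouse reads per spike-in read was 184, and 156 to 198. The 2 control mice, which differ in treatment, set the precision of every comparison between genotypes.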

Other observations

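The 65 cells that were neither LECs nor BECs numbered 17 and 22 in controls 1 and 2 and 3, 3, 10, 2 and 8 in mutants 1–5. *Myc* in their summed reads was at 66.0 and 59.1 CPM in controls and at 142, 0, 267, 3.08 and 359.7 CPM in mutants. With so few cells the mutant values spread too widely for a comparison.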
